A study of Mus musculus with 4 samples.

Results

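ERVL-MaLR elements are LTR retrotransposons without protein-coding genes of their own, thought to have moved with proteins of ERVL retroviruses. Mouse carries them as MT and ORR1, which are largely specific to rodents, and as MLT1, an older group shared with other mammals. In the deposited small RNA table, 65 of 842 transposon names fell in this family by its class and family columns, namely 12 MT names, 18 ORR1 names, 34 MLT1 names and MLT-int. Each sequence of 25 to 31 nt kept the 1 name that held most of its reads over all libraries and was counted once per library. In this way the family took 125559 of 838931 distinct transposon sequences and 779991 of 4920099 transposon reads. The libraries came from testes of 16-day-old mice, 2 with a knockdown of Hsf5 and 2 of wild type. The sources used here do not say how the knockdown was made, which strain was used or whether animals were pooled, and the table itself writes the knockdown as KO. Hsf5 encodes heat shock factor 5, a transcription factor of spermatocytes.

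PIWI-interacting RNAs (piRNAs) are cut from long single-stranded transcripts in germ cells and guide PIWI proteins to matching RNA. The cut that starts a primary piRNA favours U as the first base, written T here as in the table. In the ping-pong cycle, PIWI proteins slice a target opposite base 10 of the guide, so that a secondary piRNA tends to carry A at base 10 and overlaps its partner by 10 nt. In mouse testis the PIWI protein MILI binds shorter piRNAs and MIWI longer ones, and from the pachytene stage of meiosis on most piRNAs come from pachytene piRNA loci. LTRs of MT and ORR1 elements are known as promoters in mouse oocytes and early embryos, and an MTC LTR drives the oocyte form of Dicer.

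The sequences below are the most abundant ones of each subfamily, a pair for each, with base 1 and base 10 in capitals. They are shown because first base and base 10 are the marks compared here. Each matched 1 place in GRCm39 without mismatch.
MTB_Mm, 30 nt: TgctttctcAcagaacctaggactaccagc
MTB_Mm, 26 nt: TtgttgactGgcttgctcttcaaggt
ORR1F, 28 nt: TggacaaccGactccattgcttagcgtg
ORR1F, 26 nt: TcaatgactGgatccatcagttgggc
MLT1J2, 26 nt: TgcttccgtCtcattggtcagagctg
MLT1A0, 30 nt: TaggtcaggAactatggacatgatcagggt

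The MTB_Mm sequence of 30 nt lay at chr17:27560640-27560669 on the plus strand, in an intron of the long non-coding gene Gm10505. It had 940 and 564 reads in the Hsf5 knockdown libraries, replicates 1 and 2, and 1563 and 900 reads in the wild-type libraries. The shorter MTB_Mm sequence, at chr17:27560601-27560626 in an exon of the same gene, had 1057 and 1071 reads in the knockdown and 656 and 569 in the wild type. The groups overlapped for the longer sequence, while the shorter one was higher in both knockdown libraries.

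The ORR1F sequence of 28 nt, at chr15:74511914-74511941 on the plus strand between genes, was the most abundant of all and made up 18.66% of ORR1F reads. It gave 4770 and 7579 reads in the knockdown and 4927 and 4972 in the wild type, which came to 1096 and 1079 RPM in the knockdown against 857.5 and 933.4 RPM in the wild type (RPM, reads per 1000000 reads of 25 to 31 nt in the library). Scaled to depth, both knockdown libraries were thus higher. The second ORR1F sequence lay at chr15:74512104-74512129 on the same strand and gave 1015 and 981 reads in the knockdown and 855 and 1081 in the wild type. The groups overlapped for this one.

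Both MLT1 sequences stood for very different shares of their names. The MLT1J2 sequence, at chr17:27568390-27568415 on the plus strand, held 79.03% of all MLT1J2 reads, with 793 and 429 reads in the knockdown and 394 and 344 in the wild type. Scaled to depth, knockdown replicate 1 was highest and replicate 2 lowest. The MLT1A0 sequence, at chr7:72771876-72771905 on the plus strand, held 10.2% of its name and gave 0 and 1273 reads in the knockdown and 279 and 537 in the wild type. Knockdown replicate 1 thus lacked the second most abundant MLT1 sequence, where 0 reads allow up to 0.689 RPM, while knockdown replicate 2 had more of it than either wild-type library.

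Knockdown replicate 1 stood apart from the other 3 libraries in read length and in the piRNA loci it held, as given below, so differences between the groups often rest on it. The libraries held 9619666 and 10900306 counted reads in the knockdown and 11117460 and 9260452 in the wild type, of which 45.2% and 64.4% in the knockdown and 51.7% and 57.5% in the wild type were 25 to 31 nt long. RPM levels are not divided by element length or copy number. Of 13 marker miRNAs, all 13 were detected in every library. Scaled to all counted reads, the 6 germ-cell miRNAs summed to 12183 and 16472 RPM in the knockdown and 12168 and 10532 RPM in the wild type. The 2 miRNAs of testis somatic cells gave 825.1 and 313 RPM in the knockdown against 788.1 and 566.1 RPM in the wild type, and the 2 of muscle gave 296.9 and 332.1 RPM in the knockdown against 318.1 and 239.2 RPM in the wild type. The liver miRNA reached at most 0.6422 RPM and the red-cell miRNAs 6.029 RPM. The germ-cell sum was higher in both knockdown libraries, by a narrow margin in replicate 1, while the groups overlapped in the somatic and muscle sums. The germ-cell miRNAs did not move together. In knockdown replicate 2 miR-871-3p was at its highest, 9905 RPM, while miR-743a-3p and miR-449a-5p were at their lowest, 515 and 8.81 RPM. The part of these markers in the results below was not tested. The labels call the libraries biological replicates, so p-values measure the spread between such libraries.

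As a whole the family did not differ between the groups beyond the spread of the libraries. ERVL-MaLR reads made up 33662 and 34489 RPM in the knockdown and 33806 and 36976 RPM in the wild type (34076 ± 585 RPM in the knockdown against 35391 ± 2241 RPM in the wild type, SD, n = 2 each; exact permutation p = 0.667). With 2 libraries a group there are 6 ways to assign the labels, and the smallest p this two-sided test can reach is 0.33. Over the 13 such comparisons of levels, lengths and bases given here, the lowest Benjamini-Hochberg adjusted p was 1.

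ORR1 was the largest of the 3 subfamilies, with 48.58% of the family's reads, against 37.63% for MT and 13.25% for MLT1. MT names summed to 14199 and 11374 RPM in the knockdown and 14218 and 13160 RPM in the wild type (exact permutation p = 0.667). ORR1 names summed to 16065 and 17593 RPM in the knockdown and 15564 and 18020 RPM in the wild type (exact permutation p = 1). MLT1 names summed to 3224 and 5311 RPM in the knockdown and 3870 and 5586 RPM in the wild type (exact permutation p = 0.667). In each subfamily the groups overlapped, and the knockdown libraries lay farther apart than the wild-type ones in MT and MLT1.

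**Figure D1:**
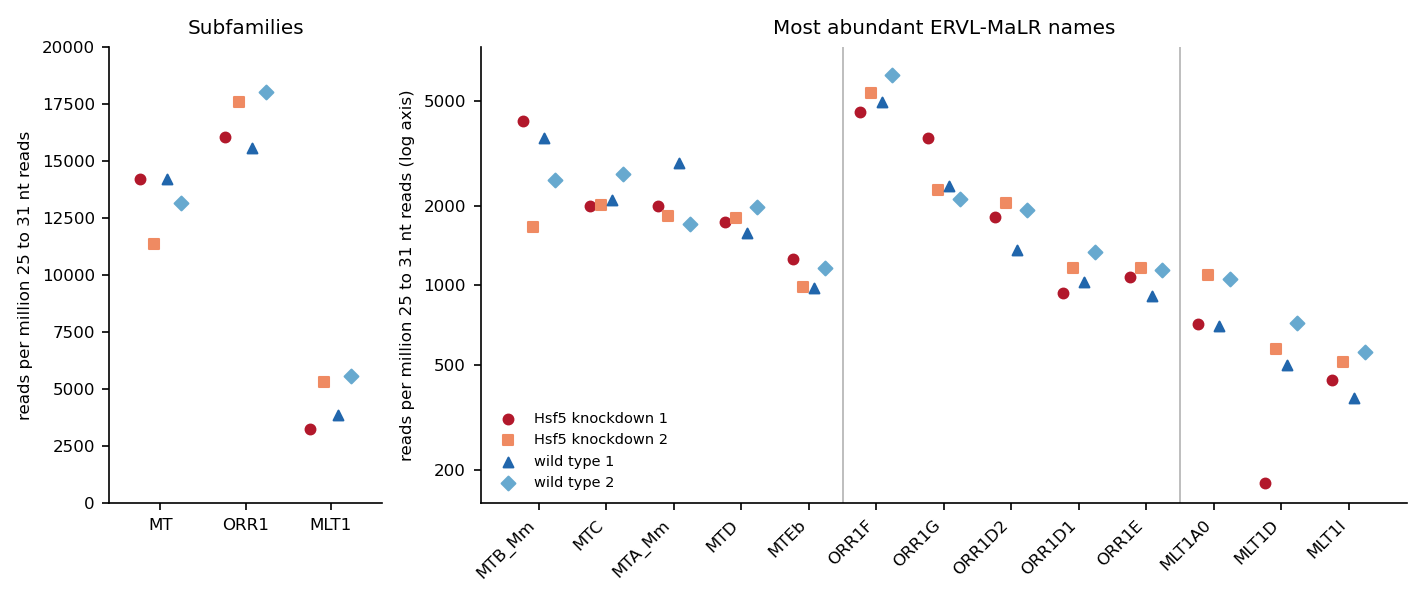
RPM in each library (points), on a linear axis for the sums of MT, ORR1 and MLT1 names and on a log axis for the most abundant names, 5 of MT, 5 of ORR1 and 3 of MLT1. Groups overlap for 12 of these 13 names and in all 3 sums, and MTC is the name whose knockdown points both lie below the wild type.

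A few names carried most of the reads. The 5 most abundant names held 43.17% of the family's reads and the 10 most abundant held 62.92%, while 25 of 65 names averaged under 100 RPM. ORR1F alone held 15.3%, with 4548 and 5342 RPM in the knockdown and 4968 and 6280 RPM in the wild type. MTB_Mm came next, with 4185 and 1666 RPM in the knockdown and 3625 and 2503 RPM in the wild type, so that the knockdown libraries lay on either side of the wild type.

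Among the other abundant MT names, MTC had 2005 and 2010 RPM in the knockdown, against 2115 and 2642 RPM in the wild type. This put both knockdown libraries below the wild type, with a difference of -0.21 ± 0.33 (log2 ± SE; edgeR's quasi-likelihood test, adjusted p = 0.996). MTA_Mm had 2007 and 1836 RPM in the knockdown and 2903 and 1703 RPM in the wild type, where wild type replicate 1 stood highest. MTD averaged 1773 ± 46.2 RPM in the knockdown and 1779 ± 277 RPM in the wild type (SD, n = 2 each), and MTEb averaged 1122 ± 188 RPM in the knockdown and 1068 ± 130 RPM in the wild type.

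Of the ORR1 names, ORR1G had 3627 and 2297 RPM in the knockdown and 2374 and 2129 RPM in the wild type, with knockdown replicate 1 apart from the other 3 libraries. ORR1D2 averaged 1934 ± 161 RPM in the knockdown and 1650 ± 401 RPM in the wild type. ORR1D1 and ORR1E lay near 1000 RPM in both groups, between 911.3 and 1343 RPM over all libraries. None of the 4 names had groups that did not overlap.

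In MLT1, the most abundant names were MLT1A0, MLT1D and MLT1I. MLT1A0 had 713 and 1095 RPM in the knockdown and 702.1 and 1061 RPM in the wild type, so that replicates 1 of both groups were low and replicates 2 high. MLT1D had 178.1 and 575.5 RPM in the knockdown and 497.6 and 718.3 RPM in the wild type, and was lowest in knockdown replicate 1. MLT1I averaged 474.2 ± 53.2 RPM in the knockdown and 466.1 ± 129 RPM in the wild type.

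No ERVL-MaLR name was called between the groups. All 65 passed the filter of 1 CPM in at least 2 libraries, and 0 of them had an adjusted p under 0.05 in edgeR's quasi-likelihood test, as did 0 of the 793 transposon names tested (0%). DESeq2 also called 0. At an unadjusted p under 0.05, 1 of 65 names stood out, against 2.02% of all names tested. That name was MLT1J-int, the internal part of an MLT1J element, with 17.23 and 55.8 RPM in the knockdown and 13.92 and 16.9 RPM in the wild type (log2 difference 1.28 ± 0.52, SE; edgeR's quasi-likelihood test, adjusted p = 0.996). Both knockdown libraries were higher, but replicate 1 only just passed wild type replicate 2. Without knockdown replicate 1 it was the 1 ERVL-MaLR name called, at a log2 difference of 1.88, where 1.03% of all names tested were called, and with the names as deposited the difference was 0.77. Without knockdown replicate 2, 5 of 65 ERVL-MaLR names were called, 1 higher and 4 lower, among them MLT1D at -1.71 (log2), where 6.79% of all names tested were called, so the members' share was near the background.

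The log2 differences were split evenly, with 33 names higher and 32 lower in the knockdown and a median of 0.021, against -0.014 over all 793 names. Groups did not overlap, with the knockdown higher, in 6 names, all of them MLT1 names, where 12.5% of all names tested did so. They did not overlap, with the knockdown lower, in another 6 names, of which 2 were MT, 1 ORR1 and 3 MLT1 names, where 11.6% of all names did so. These shares of 65 are close to or below those backgrounds. The other names of lowest p, none of them called, were of low level. MLT1G1 had 15.39 and 13.67 RPM in the knockdown and 10.27 and 7.13 RPM in the wild type. MLT1E had 8.96 and 12.1 RPM in the knockdown and 7.14 and 5.82 RPM in the wild type. Both of these were higher in both knockdown libraries. MT-int had 38.37 and 38.58 RPM in the knockdown and 74.32 and 40.93 RPM in the wild type, where only wild type replicate 1 stood apart. MLT1E1A had 18.38 and 34.73 RPM in the knockdown and 32.55 and 44.87 RPM in the wild type, with overlapping groups.

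Lengths set knockdown replicate 1 apart in every subfamily. Reads of 29 to 31 nt made up 16.65% and 32.2% of MT reads in the knockdown and 29.64% and 29.68% in the wild type. They made up 14.33% and 36% of ORR1 reads in the knockdown and 31.21% and 32.16% in the wild type. For MLT1 the shares were 9.66% and 37.7% in the knockdown and 33.51% and 32.89% in the wild type. The knockdown libraries lay on either side of the wild type in all 3 (exact permutation p = 1 each). All 25 to 31 nt reads did the same, with 18.23% and 37.57% in the knockdown and 32.99% and 31.81% in the wild type.

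Within libraries the subfamilies did not separate by length in a steady way. The share of 29 to 31 nt reads was lower in MT than in ORR1 in 3 of 4 libraries (27.04% against 28.42% on average; exact sign-flip p = 0.375) and lower in MT than in MLT1 in 3 of 4. Knockdown replicate 1 was the exception both times. The most frequent length of MLT1 reads was 26 nt in all 4 libraries. Single names ranged wider than the subfamilies. Reads of 29 to 31 nt made up 6.68% and 13.1% of MTEa in the knockdown and 13.58% and 11.41% in the wild type. They made up 28.65% and 45.59% of MTC in the knockdown and 45.52% and 44.34% in the wild type, above MTEa in each library.

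**Figure D2:**
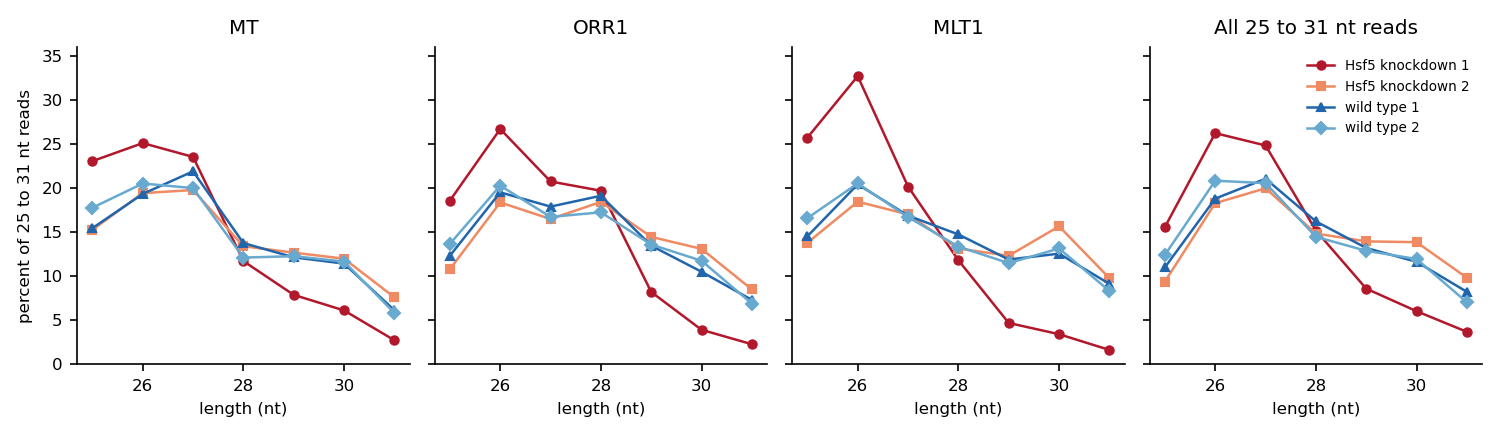
Percent of 25 to 31 nt reads at each length (nt) for MT, ORR1, MLT1 and all reads, with a line per library. Knockdown replicate 1 peaks at 26 nt and falls below the other 3 libraries from 29 nt on in every panel, with 9.66% of its MLT1 reads at 29 to 31 nt.

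The first base was T in most reads of all 3 subfamilies. MT reads began with T in 85.08% and 86.14% of cases in the knockdown and 80.64% and 83.09% in the wild type. ORR1 reads did so in 88.2% and 89.02% in the knockdown and 85.93% and 87.85% in the wild type, and MLT1 reads in 86.86% and 90.15% in the knockdown and 86.1% and 87.87% in the wild type. In MT and ORR1 both knockdown libraries were higher, by 3.75 and 1.71 percentage points on average (exact permutation p = 0.33 each, the lowest possible). The widest of the 95% Wilson intervals of these shares extended 0.559 points each way, for counting error only. In all 25 to 31 nt reads T was first in 81.7% and 85.21% in the knockdown and 76.37% and 83.56% in the wild type, with overlapping groups. ERVK and ERV1, like MT and ORR1, were higher in both knockdown libraries. ERVK had 83.4% and 85.84% in the knockdown and 82.85% and 83.06% in the wild type. ERV1 had 89.3% and 92.07% in the knockdown and 87.3% and 89.04% in the wild type. In ERVL the groups overlapped.

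By reads, MT had a lower share of T than both other subfamilies in each of the 4 libraries. The difference was -4.01 ± 1.19 points from ORR1 and -4.01 ± 1.6 points from MLT1 (SD over 4 libraries; exact sign-flip p = 0.13 each, the lowest possible with 4 libraries; adjusted p = 0.281 over 9 comparisons). ORR1 and MLT1 differed by 0.005 ± 1.02 points. Counted over distinct sequences, MT minus ORR1 was -0.46 points (exact sign-flip p = 0.375), MT minus MLT1 was -4.52 points and ORR1 minus MLT1 was -4.06 points, so the difference between MT and ORR1 was nearly gone by that count.

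By all reads, base 10 gave the clearest difference between the subfamilies. Among reads that did not start with T, A at base 10 made up 49.75% and 53.95% of MT reads in the knockdown and 52.35% and 55% in the wild type. In ORR1 it made up 32.76% and 48.9% in the knockdown and 37.33% and 43.91% in the wild type, and in MLT1 42.35% and 33.63% in the knockdown and 42.4% and 39.9% in the wild type. MT lay above ORR1 by 12.04 ± 5.26 points and above MLT1 by 13.19 ± 5.73 points, in 4 of 4 libraries each time (SD; exact sign-flip p = 0.13, adjusted p = 0.281). ORR1 and MLT1 changed places between libraries (1.16 ± 11 points, p = 0.875 in the exact sign-flip test). By distinct sequences ORR1 lay 7.53 points above MLT1 (exact sign-flip p = 0.13), and by reads with 1 place 8.11 points (p = 0.25 in the same exact test). By distinct sequences MT stayed above ORR1, by 8.04 points, and above MLT1, by 15.57 points. The widest 95% Wilson interval here extended 2.25 points each way. By all reads, the groups overlapped between knockdown and wild type in all 3 subfamilies. Among reads with 1 place in the piRNA loci described below, MT had 45.64% and 51.44% in the knockdown and 58.01% and 56.69% in the wild type. ORR1 had 32.34% and 52.54% there in the knockdown and 43.48% and 45.17% in the wild type. In the loci MT was thus not above ORR1 in knockdown replicate 2. Among reads with 1 place outside the loci it was above ORR1 in every library.

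The base 10 share of MT differed between its names. The names carry letters that run, by the usual dating of these elements, from younger (MTA, ORR1A) to older (MTE, ORR1G). They were put together by letter after their values were seen, so the following is a description with no test. Among reads of the 5 MTA, MTB and MTC names not starting with T, A at base 10 made up 60.62% and 66.29% in the knockdown and 59.45% and 65.99% in the wild type. At the other bases from 2 to 20 of the same reads, A averaged 31.08% and 30.44% in the knockdown and 34.4% and 33.91% in the wild type. Base 10 thus stood well above its neighbours in every library.

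Among the 6 MTD and MTE names the same share was 26.34% and 31.02% in the knockdown and 30.37% and 30.55% in the wild type. A at the other bases averaged 27.05% and 27.1% in the knockdown and 27.17% and 27.39% in the wild type. Base 10 of these older names was therefore within 4 points of the other bases in every library. Counted over distinct sequences the split stayed, with 49.94% for MTA, MTB and MTC and 30.04% for MTD and MTE. Fewer reads of the younger names had 1 place in the genome, 45.71% against 81.59%, and whether this bears on base 10 was not tested.

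Single names varied within these sets. Over the libraries, A at base 10 of reads not starting with T made up 68.42% to 77.49% in MTC, 61.41% to 66.36% in MTA_Mm, 60.61% to 69.54% in MTB and 47.28% to 49.71% in MTB_Mm. The internal part MTC-int, with 126 such reads in all, had 29.37% over the 4 libraries together, close to the older names. Among those, MTD had 27.39% to 34.8%, MTE2a 31.46% to 36.73% and MTEb 17.79% to 30.03%. Over distinct sequences MTC, at 46.61%, lay below MTB at 57.42% and MTA_Mm at 51.86%. The most abundant sequences of each side with 1 place that do not begin with T are shown for this contrast, with bases 1 and 10 in capitals.
MTC, 30 nt: AgagtcatcAgagaagagggaacctcaact
MTD, 25 nt: CagaagtagTgtgtgactctggtgt
The MTC sequence lay at chr11:103332475-103332504 on the plus strand, in an intron of the long non-coding gene Gm39397, with 242 and 82 reads in the knockdown and 219 and 219 in the wild type. The MTD sequence lay at chr17:27576018-27576042 on the plus strand, in an exon of Gm49794, with 74 and 64 reads in the knockdown and 47 and 60 in the wild type.

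ORR1 followed the same order between younger and older names taken as sets, with more spread, but not letter by letter. In the 10 ORR1A and ORR1B names A at base 10 made up 39.69% and 58.78% in the knockdown and 40.9% and 55.18% in the wild type, so that replicates 2 of both groups were high. In the 8 names from ORR1C to ORR1G it made up 28.21% and 38.92% in the knockdown and 33.83% and 35.09% in the wild type, against 27.35% to 29.07% at the other bases. ORR1G was lowest, at 16.02% to 21.67%. MLT1 names were not put together by letter. Among the 15 of 34 MLT1 names with at least 100 reads not starting with T, over the 4 libraries together, A at base 10 ranged between 6.9% in MLT1G and 68.7% in MLT1F, with 67.26% in MLT1A0 and 7.36% in MLT1K. Over distinct sequences the share in MLT1A0 was 33.58%.

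The first base ran the other way. T began 83.36% and 82.87% of MTA, MTB and MTC reads in the knockdown and 77.76% and 78.95% in the wild type. It began 87.8% and 89.75% of MTD and MTE reads in the knockdown and 86.02% and 88.29% in the wild type. The older names had the higher share of T in each library. Counted over distinct sequences the shares lay closer, at 71.36% for MTA, MTB and MTC and 73.77% for MTD and MTE.

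**Figure D3:**
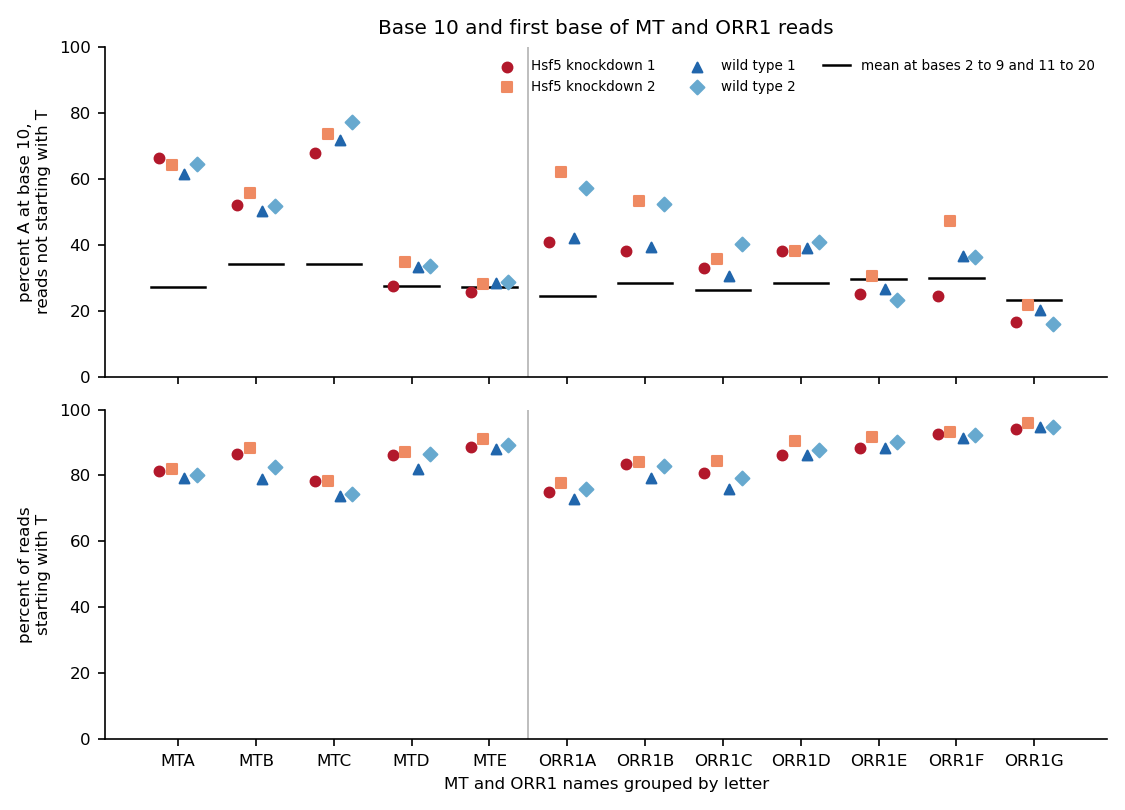
Percent of A at base 10 among reads not starting with T (top) and percent of reads starting with T (bottom) for MT and ORR1 names grouped by letter, with 1 point per library. Black bars mark the mean percent of A at bases 2 to 9 and 11 to 20 of the same reads, averaged over libraries. MTA, MTB and MTC stand above their bars in every library, while MTE stays near its bar and ORR1G lies below its own in every library.

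Set against ERVL and ERVK, ERVL-MaLR reads as a whole carried less A at base 10, but those with 1 place in a piRNA locus did not. The share among reads not starting with T averaged 46.02%, against 54.79% in ERVL, the family whose proteins MaLR elements are thought to use, and 55.15% in ERVK, which holds the active IAP and ETn elements. ERVL-MaLR was lower in 4 of 4 libraries both times, with differences of -8.77 ± 1.43 and -9.14 ± 2.16 points (SD; exact sign-flip p = 0.13, adjusted p = 0.167 over 12 comparisons). It was above all 25 to 31 nt reads by 19.95 ± 2.58 points in 4 of 4 libraries. Against ERV1 it was lower in 3 of 4 libraries only, knockdown replicate 2 being the exception. Among reads with 1 place in the piRNA loci described below, the ERVL-MaLR share was 38.04% and 47.88% in the knockdown and 48.17% and 47.55% in the wild type. There ERVL had 37.62% and 42.74% in the knockdown and 45.92% and 48.17% in the wild type, and ERVK had 36.68% and 41.27% in the knockdown and 42.42% and 43.96% in the wild type. ERVL-MaLR was thus above ERVK in 4 of 4 libraries and above ERVL in 3 of 4, a difference that was not tested.

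Most ERVL-MaLR reads with a single origin came from piRNA loci. The table names 214 such loci with their coordinates, which cover 8.93 Mb or 0.327% of GRCm39. Of ERVL-MaLR reads, 72.26% and 74.34% in the knockdown and 67.09% and 73.71% in the wild type matched exactly 1 place. Of those, 87.14% and 87.08% in the knockdown and 83.73% and 89.62% in the wild type lay in the loci (exact permutation p = 1). The wild-type libraries enclosed the knockdown ones. By distinct sequences the picture differed, as 26.67% of ERVL-MaLR sequences had their 1 place in a locus and 30.08% had it elsewhere, so reads per sequence were higher in the loci.

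All 3 subfamilies shared this. In the loci lay 85.49% and 81.67% of MT reads with 1 place in the knockdown and 79.74% and 85.75% in the wild type. For ORR1 the shares were 89.23% and 88.99% in the knockdown and 85.53% and 91.05% in the wild type, and for MLT1 81.45% and 89.67% in the knockdown and 85.84% and 91.85% in the wild type. Groups overlapped each time. The like families shared it too. Over the libraries, the loci held 86.48% to 90.34% of 1-place reads in ERVL, 81.21% to 86.32% in ERVK and 94.75% to 95.6% in ERV1. Within the loci, 99.75% of ERVL-MaLR reads lay on the locus's main strand, the one with most ERVL, ERVK and ERV1 reads, in 201 loci that had one.

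Reads in the loci and elsewhere differed in their bases. T came first in 90.17% of ERVL-MaLR reads in the loci and in 78.05% of those elsewhere, a gap of 12.11 ± 4.26 points (SD over 4 libraries). A at base 10 among other reads made up 45.41% in the loci and 32.69% elsewhere, a gap of 12.72 ± 4.64 points. Both gaps had the same sign in 4 of 4 libraries and in each subfamily (exact sign-flip p = 0.13, adjusted p = 0.188 over 12 comparisons). This split was chosen after the data were seen. ERVL, ERVK and ERV1 reads also had more T in the loci than elsewhere in each library. Their A at base 10 was higher in the loci in each library for ERV1, but not for ERVL or ERVK. In the loci, 62.14% and 54.25% of reads in the knockdown and 58.61% and 56.42% in the wild type lay within long non-coding genes of GENCODE M39. Elsewhere, 54.05% and 48.3% in the knockdown and 62.57% and 53.09% in the wild type lay within protein-coding genes.

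A few loci supplied each subfamily. Of ERVL-MaLR reads in the loci, 23.75% came from locus 17-qA3.3-26735 (chr17:27544171-27586457, plus strand), where ORR1G was the leading name. It gave 8558 and 3711 RPM in the knockdown and 5028 and 4451 RPM in the wild type, so knockdown replicate 1 was highest and replicate 2 lowest. Together with its neighbour on the minus strand, 17-qA3.3-27363, where MTEb led, it held 43.7% and 19.31% of 1-place reads in the knockdown and 27.59% and 21.1% in the wild type.

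Other loci were nearly pure in 1 name or subfamily. At 15-qD3-14639, the source of the abundant ORR1F sequences above, 90.01% of ERVL-MaLR reads were ORR1F, with 2514 and 2360 RPM in the knockdown and 2075 and 2616 RPM in the wild type. At 15-qD1-17920, 95.02% were MLT1, led by MLT1I, with 563.2 and 782.5 RPM in the knockdown and 500.9 and 778.1 RPM in the wild type. At 6-qF3-28913, 93.29% were MTC, with 55.84 and 370.8 RPM in the knockdown and 384.1 and 564.7 RPM in the wild type. The groups overlapped at the ORR1F and MLT1I loci, while at the MTC locus both knockdown libraries lay below the wild type and replicate 1 far below.

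Knockdown replicate 1 held almost no reads of a set of these loci. Of 63 loci that averaged at least 10 RPM of ERVL-MaLR reads, 17 were under 5% of the lowest other library in knockdown replicate 1, and 0 were under 5% of the lower wild-type library in replicate 2. Both limits were set with the values in view. The 17 loci together gave 5.74 and 6305 RPM in the knockdown and 4505 and 7275 RPM in the wild type. The remaining loci gave 21178 and 16005 RPM in the knockdown and 14475 and 17136 RPM in the wild type. That replicate 1 was lowest in the first set was fixed by the limit that picked it. Its highest value in the second set was favoured by the same choice, as loci low in replicate 1 had been taken out. In these bulk libraries, fewer cells of a type and less RNA per cell cannot be told apart.

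Some names drew more on this set than others. Locus 12-qE-23911, with 92.15% ORR1F, gave 0.23 and 1550 RPM in the knockdown and 937.2 and 1536 RPM in the wild type, while ORR1F at 15-qD3-14639 was not low in replicate 1. Locus 7-qD1-19431, source of the MLT1A0 sequence above, gave 0 and 750 RPM in the knockdown and 307.2 and 571.3 RPM in the wild type. MLT1K had 94.06% of its 1-place reads in a single locus of this set, 18-qE1-36451, and gave 26.42 and 319.4 RPM in the knockdown and 325.3 and 514.4 RPM in the wild type (log2 difference -1.25 ± 1.42, SE; edgeR's adjusted p = 0.996). By subfamily, the 17 loci gave 0.46 and 1421 RPM of MT reads in the knockdown and 991 and 1649 RPM in the wild type, while for MLT1 they gave 2.76 and 1878 RPM in the knockdown and 1327 and 2157 RPM in the wild type. Outside all loci MLT1 reads were at 469 and 452.8 RPM in the knockdown and 440.7 and 365.1 RPM in the wild type, so that both knockdown libraries lay above the wild type there (exact permutation p = 0.33).

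**Figure D4:**
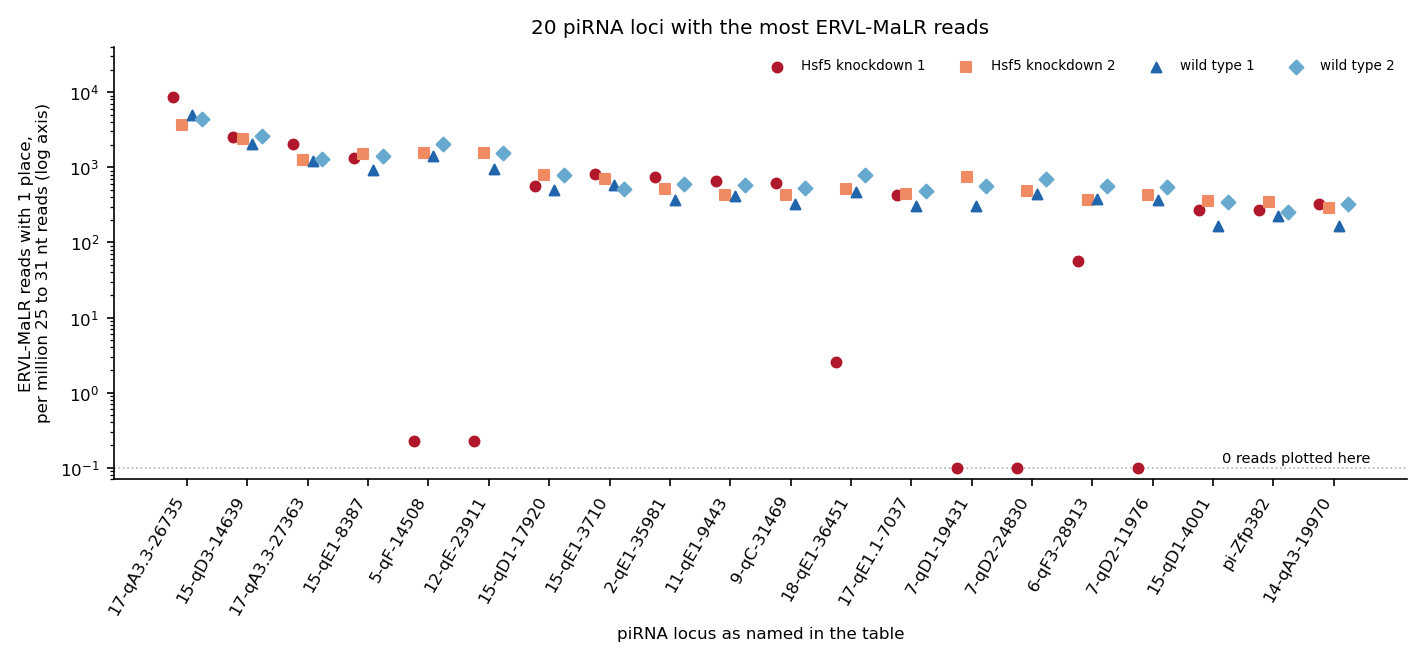
RPM of ERVL-MaLR reads with 1 place (log axis) in each library for the 20 piRNA loci with most such reads, 0 reads being drawn on the dotted line. At 5 loci, among them 5-qF-14508 and 12-qE-23911, knockdown replicate 1 lies at or near 0 while the other 3 libraries lie between 307.2 and 2067 RPM, and 18-qE1-36451 follows at 2.53 RPM.

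Overlaps of 5′ ends on opposite strands peaked at 10 nt in most measures. Weighted by the product of reads, 10 nt overlaps made up 19.97% and 22.67% of overlaps of 1 to 20 nt in the knockdown and 38.18% and 56.02% in the wild type (21.32% ± 1.91 in the knockdown against 47.1% ± 12.6 in the wild type, SD, n = 2 each; exact permutation p = 0.33). In knockdown replicate 1 the 17 nt overlap was higher still, at 21%. About as much of the wild-type value came from 1 site as from all others together. At chr15:74511914, where the ORR1F sequence of 28 nt begins, 1 read on the opposite strand in each wild-type library and 0 in the knockdown gave 51.11% and 48.74% of the wild-type product at 10 nt. There the plus strand had 6309 and 9931 reads in the knockdown and 6873 and 7858 in the wild type, so the product turned on single opposite reads.

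Weighted by the smaller partner of each pair, a measure added after this was seen, 10 nt overlaps made up 12.55% and 14.19% in the knockdown and 15.05% and 14.29% in the wild type. Over distinct sequences they made up 11.34% and 13.66% in the knockdown and 14.66% and 15.21% in the wild type. The 10 nt overlap was the most frequent one in all 4 libraries by both of these measures, and the knockdown lay lower by under 3 points on average (exact permutation p = 0.33 each). By the smaller partner ERVL, ERVK and ERV1 also peaked at 10 nt in all 4 libraries, at 11.85% to 15.36%. Among ERVL-MaLR reads with 1 place outside the loci, 10 nt was the most frequent overlap in no library. There it made up 0% and 5.63% in the knockdown and 10.53% and 0% in the wild type by the smaller partner. The most frequent overlap there was 14 and 7 nt in the knockdown and 20 and 2 nt in the wild type. How many pairs lie behind these shares is not given here, so the lack of a peak outside the loci is left without a conclusion. By distinct sequences the MT share was 9.52% and 12.09% in the knockdown and 10.86% and 13.11% in the wild type (exact permutation p = 0.667), and the ORR1 share was 13.65% and 16.39% in the knockdown and 16.74% and 16.46% in the wild type (exact permutation p = 0.33). The groups overlapped in MT, and in ORR1 knockdown replicate 2 lay just below the wild type. For MLT1 the distinct-sequence share was 9.88% and 10.03% in the knockdown and 23.45% and 20.74% in the wild type (exact permutation p = 0.33). In knockdown replicate 1 the 6 nt overlap was the most frequent by that count. That library held 3303 distinct MLT1 sequences, against 6961 in knockdown replicate 2 and 5737 and 6426 in the wild type. How many MLT1 pairs lie behind these shares is not given here. By the smaller partner the 10 nt share of MLT1 was 11.11% and 11.08% in the knockdown and 17.2% and 13.74% in the wild type, a narrower gap in the same direction. For ORR1 it was 9.48% and 14.13% in the knockdown and 11.49% and 11.92% in the wild type, with overlapping groups.

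The ERVL-MaLR pair with a 10 nt overlap and the most reads in its smaller partner lay in locus 5-qF-14508 on chromosome 5, within the gene model Gm73615. Bases 1 to 10, which pair with each other, are in capitals.
MTE2a, plus strand: TGCTGTGATAaaacatcctgaccaagagc
MTD, minus strand: TATCACAGCAacagaaaggaaactaggaa
The MTE2a read, at chr5:113484162-113484190, was counted 0 and 2 times in the knockdown and 6 and 5 times in the wild type. The MTD read, at chr5:113484143-113484171, was counted 0 and 93 times in the knockdown and 97 and 201 times in the wild type. Both were at 0 in knockdown replicate 1, where this locus had 0.23 RPM of ERVL-MaLR reads, and were counted in the other 3 libraries.

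**Figure D5:**
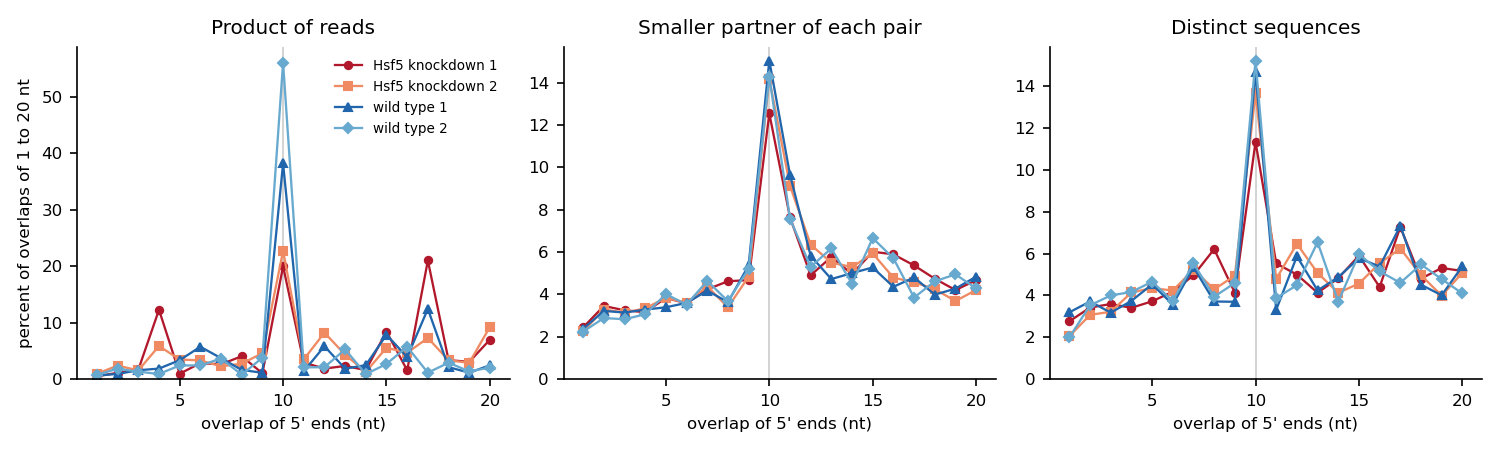
Percent of overlaps of 1 to 20 nt at each overlap (nt) of ERVL-MaLR 5′ ends on opposite strands, by 3 weightings, with a line per library. The 10 nt overlap stands out in the wild type by product of reads, at 38.18% and 56.02%, while by the smaller partner it lies between 12.55% and 15.05% in all 4 libraries.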

How the data were processed

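Raw counts of reads per distinct sequence and library were deposited by the authors in 1 table without a header, with a name, class and family for each sequence. A second column held a ratio, the scaling factor deposited for each library, and was used only in an alternative. Inserts of 18 to 40 nt were selected, per the labels' protocols. The submitters' processing notes list cutadapt and mm39. The aligner is not given in the sources used here, nor are its mismatch limit or the priority among classes. Each sequence was counted once per library, under the name with most reads over all libraries, which settles the 8.08% of repeated ERVL-MaLR sequences whose name differed between libraries. Names were tested on counts with edgeR 4.0.16 (R 4.3.3; TMM, robust quasi-likelihood F test, at least 1 CPM in 2 libraries, Benjamini-Hochberg over 793 names), a fit also tested on simulated data. Alternatives were DESeq2 1.42.0, no filter, deposited names, miRNA scaling, a replicate block, other denominators and each library left out. Shares were compared by exact two-sided permutation or sign-flip tests. Sequences were matched without mismatch to GRCm39, the assembly that mm39 also names, and annotated with GENCODE M39 at their middle base. Names described singly were the 5 MT, 5 ORR1 and 3 MLT1 names of highest mean RPM and the 3 of lowest p in each direction. MLT1K, MTEa, the single MT names compared at base 10 and other names singled out, the letters and the loci were picked with values in view. The members and lists were chosen with earlier results of these data known. Which strand of an element a read matches was not analysed here. No sequence of chromosome 18 is printed.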

Additional observations from a re-analysis of the deposited data

How the results depend on the processing

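In the fits on counts, no name was called under any alternative that kept all 4 libraries, except with a replicate block. The fit with that block called 1 transposon name and 0 of ERVL-MaLR. The exact permutation and sign-flip tests, whose smallest p are 0.33 and 0.13, could not pass 0.05 under any setting. Replicates 1 of both groups deviated together (r = 0.2517 over transposon names), but the labels do not say that a number marks a shared litter or day, so libraries share only a number. Leaving out 1 library moved the calls between 0 and 53 transposon names, and between 0 and 5 ERVL-MaLR names. Without knockdown replicate 1, 8 names were called, and without replicate 2, 53. Directions within the spread turned. For the log2 ratio of the share, ORR1 turned to -0.1455 per mature miRNA read, -0.001851 with names as deposited, -0.005366 by distinct sequences and -0.05075 outside the loci. MT turned to 0.0026 by distinct sequences and MLT1 to 0.194 outside the loci. By distinct sequences, the share of 29 to 31 nt turned to 0.2592 points for MT minus MLT1 and 2.583 for ORR1 minus MLT1. The share of T for ORR1 minus MLT1 turned to -0.4879 with deposited names and -4.062 by distinct sequences. Knockdown minus wild type in A at base 10 turned to -0.5108 by distinct sequences and -0.2166 by 1-place reads for ORR1, and to 0.3828 by distinct sequences for MLT1. The percent in loci by distinct sequences was -3.609 for ERVL-MaLR, -2.698 for MT and -2.579 for ORR1. Scaled by miRNA reads, log2 differences turned to -0.1708 for MTD, -0.1417 for MTEb, -0.03189 for ORR1E, -0.07795 for MLT1A0 and -0.136 for MLT1I. The 10 nt overlap by smaller partner was -1.298 points, against -25.78 by product. With each library left out in turn, log2 ratios of shares ranged between -0.1178 and 0.01146 for ERVL-MaLR, -0.2673 and 0.05275 for MT, -0.0987 and 0.1127 for ORR1, and -0.5524 and 0.1678 for MLT1. Percents in loci ranged between -2.512 and 3.382 for ERVL-MaLR, -2.17 and 3.84 for MT, -1.938 and 3.584 for ORR1, and -7.394 and 0.8178 for MLT1. Shares of 29 to 31 nt ranged between -13.01 and 2.535 for MT, -17.36 and 4.313 for ORR1, -23.54 and 4.495 for MLT1, and -1.579 and 0.745 for ORR1 minus MLT1. A at base 10 ranged between -3.926 and 0.2743 for MT, -7.856 and 8.279 for ORR1, -7.517 and 1.204 for MLT1, and -3.55 and 4.735 for ORR1 minus MLT1. The share of T ranged between -0.1253 and 3.167 for MLT1 and -0.4375 and 0.3861 for ORR1 minus MLT1. Single names ranged between -0.243 and 0.3754 (MLT1A0), -1.709 and -0.0542 (MLT1D), -0.1845 and 0.3523 (MLT1I), 0.2219 and 1.878 (MLT1J-int), -0.5791 and 0.2233 (MTA_Mm), -0.8632 and 0.5037 (MTB_Mm), -0.1064 and 0.1783 (MTD), -0.08815 and 0.2937 (MTEb), -0.308 and 0.03826 (ORR1D1), and -0.2959 and 0.006594 (ORR1F). The alternatives with reads outside the loci, with distinct sequences in the loci and with the smaller partner were added after seeing the data. A lone library is assumed to vary like the other group. The cause of these changes was not tested.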

Other observations

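About as many ERVL-MaLR reads lay outside the 25 to 31 nt window as in it. Reads of 25 to 31 nt made up 49.247% of ERVL-MaLR reads of all lengths, those of 32 to 47 nt 2.614% and those of 16 to 24 nt 48.139%, with 240136 and 133009 reads in the Hsf5 knockdown and 206518 and 182792 in the wild type. MLT1C lay almost wholly there. It had 22646 and 10940 reads of 16 to 24 nt in the knockdown and 24684 and 16646 in the wild type, 98.737% of its reads, against 121 and 305 reads of 25 to 31 nt in the knockdown and 246 and 265 in the wild type. MLT1C was chosen after its values were seen.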
